A study of Mus musculus with 4 samples.

Results

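Dipk1c, Macc1, Barx2, Ednrb and Prox1 are 5 genes whose known roles lie mainly outside lymphocytes, and in these data they carried far more open chromatin in IL-10- than in IL-10+ regulatory T (Treg) cells. They ranked first among 14409 protein-coding genes that reached a minimum of 50 fragments, summed over the Treg subsets, in the cecum library and also in the tumor library, out of 21887 genes counted. Genes were ranked by the smaller of their cecum and tumor log2 ratios, IL-10- Treg against IL-10+ Treg. Since this ratio chose them, it is given below as a description and supports nothing. Each of the 5 passed the minimum of 50 fragments mainly through IL-10- Treg cells, where it is high.

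Sorted T cells came from AKP colorectal tumors of mice and from their neighbouring tumor-free cecum, 4 weeks after transplantation. AKP tumors grow from mouse intestinal organoids that lack Apc and Trp53, placed in the wall of the cecum. A multiome assay gave the RNA and the open chromatin (ATAC) of each single nucleus, and 1 ATAC library per tissue was used here. The strain, age and number of the mice behind each library are not given in the sources used here. The 17 cell type labels are the authors' own and come from clusters of the RNA. The 2 Treg labels are named for Il10, and all groups compared here are T cells from tumor-bearing mice, the cecum included.

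In ATAC, a transposase cuts DNA that is free of packed nucleosomes, so fragments pile up at promoters and enhancers in use. Treg cells restrain other immune cells and, in barrier tissues, also take part in tissue repair, and open chromatin near a gene of another lineage need not mean that its RNA is made. Ednrb encodes a G-protein-coupled receptor for endothelin peptides that enteric neuron precursors need to reach the distal gut. Dipk1c encodes a membrane protein of the endoplasmic reticulum with a divergent protein kinase domain. Macc1 encodes a regulator of the hepatocyte growth factor receptor gene Met and is known from metastatic colon cancer. In human tumors the authors list MACC1 among the RNA module genes of IL-10+ Treg cells. Barx2 and Prox1 encode homeobox transcription factors, Barx2 in muscle and epithelium and Prox1 as the regulator that sets lymphatic endothelial identity.

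Levels are fragments with an end in a window, per 1000000 fragments of the label in its library (FPM), and a window is the gene span with 5 kb on each side. The cecum library held 66466111 fragments and 7155 labelled cells, and the tumor library 96747563 fragments and 8466 labelled cells. Median depth per labelled cell was 4374 fragments (cecum) and 5846 (tumor). There were 424 cecum and 737 tumor IL-10- Treg cells, against 996 and 387 IL-10+ Treg cells. In each library, 84 of the labelled barcodes also carried a label in the other library. Since each tissue has 1 library, differences were not tested and no p-value is given, and the intervals shown are exact, at 95%, and take in counting error alone. A gene is called higher when its log2 ratio on the FPM + 1 scale is at least 1.

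For Ednrb and Prox1 the fullest part of the IL-10- Treg signal lay at the start of the gene, so their promoters are shown. Each runs from 250 bases before to 50 bases after a RefSeq start on GRCm38.p6, the build also called mm10. The Ednrb promoter is chr14:103843652-103843951 and the Prox1 promoter shown is chr1:190170778-190171077, both on the minus strand. RefSeq gives Prox1 a second start, whose promoter at chr1:190169466-190169765 held 3 cecum and 4 tumor fragments of IL-10- Treg cells, 0 of IL-10+ Treg cells and 1 GC box. Capitals mark matches to a motif on either strand:
Ednrb: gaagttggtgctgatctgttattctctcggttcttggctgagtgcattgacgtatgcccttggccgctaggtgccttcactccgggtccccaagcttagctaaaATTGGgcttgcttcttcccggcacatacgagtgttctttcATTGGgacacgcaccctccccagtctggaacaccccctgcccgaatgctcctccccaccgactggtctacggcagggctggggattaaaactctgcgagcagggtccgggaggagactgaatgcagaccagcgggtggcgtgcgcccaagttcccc
Prox1: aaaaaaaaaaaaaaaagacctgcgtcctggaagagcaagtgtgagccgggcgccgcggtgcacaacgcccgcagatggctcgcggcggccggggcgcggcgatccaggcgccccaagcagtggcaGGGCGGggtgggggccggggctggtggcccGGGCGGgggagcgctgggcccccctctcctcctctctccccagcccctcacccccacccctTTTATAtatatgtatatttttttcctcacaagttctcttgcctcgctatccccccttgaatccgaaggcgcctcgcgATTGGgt

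In the Ednrb promoter both matches are CCAAT, read on the other strand as ATTGG. In the Prox1 promoter the matches are 2 GC boxes (GGGCGG), 1 TATAAA read as TTTATA, and 1 CCAAT, and no match shared a letter with another. Of 32851 RefSeq promoters of the same length, 37.4% held CCAAT, 35.7% held GGGCGG and 13.6% held TATAAA. Further motifs were searched, and their letters were in neither window on either strand. They were the GATA motif AGATAA, which 11.2% of all promoters held, the AP-1 motif TGANTCA with 7.81%, and the NR4A motif AAAGGTCA with 1.51%. The RUNX motif TGTGGTT had 5.27%, the ETS motif ACAGGAAG 3.58%, the E-box CACGTG 7.15% and the TCF motif CTTTGAT 3.73%.

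The Ednrb promoter gave 27 fragments in cecum IL-10- Treg cells and 55 in those of the tumor, or 9.0 and 9.47 FPM. IL-10+ Treg cells gave 2 fragments there in each library, 0.350 FPM (cecum) and 0.733 FPM (tumor). The IL-10- Treg level was thus high in both tissues and differed little between them. Pooled over the 15 non-Treg labels, the Ednrb promoter gave 0.510 FPM from 18 cecum fragments and 0.914 FPM from 49 tumor fragments. The Prox1 promoter gave 7 fragments in cecum and 15 in tumor IL-10- Treg cells, against 3 and 0 in IL-10+ Treg cells. For Macc1 the RefSeq promoter used, chr12:119443160-119443459, lies well inside the gene span and 55.2 kb from the fullest tile. It held 0 fragments in both Treg subsets and in all non-Treg labels of both libraries. No start at the lower-numbered end of the span, which is nearer the fullest tile, was looked at. No promoter of Barx2 or Dipk1c was used here.

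Ednrb lies on chromosome 14 from 103814615 to 103844508. Its window gave 20.7 FPM (62 fragments) in cecum IL-10- Treg cells and 35.1 FPM (204 fragments) in tumor IL-10- Treg cells. IL-10+ Treg cells gave 2.10 FPM (12 fragments) and 2.93 FPM (8 fragments). Either library thus put IL-10- far above IL-10+ Treg cells, by a log2 ratio of 3.30 (2.39 to 4.33) for the cecum and 3.58 (2.58 to 4.81) for the tumor.

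Dipk1c lies on chromosome 18 from 84719008 to 84744695. Cecum IL-10- Treg cells had 47.7 FPM there (143 fragments), the highest of all labels, and tumor IL-10- Treg cells 30.8 FPM (179 fragments). The same tissues gave 2.63 FPM (15 fragments) and 2.57 FPM (7 fragments) for IL-10+ Treg cells. Log2 ratios came to 4.18 (3.41 to 5.06, cecum) and 3.59 (2.51 to 4.92, tumor).

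Macc1 lies on chromosome 12 from 119390398 to 119466934. Its level was 34.0 FPM (102 fragments) for cecum and 35.1 FPM (204 fragments) for tumor IL-10- Treg cells. IL-10+ Treg cells had 3.5 FPM (20 fragments) and 2.57 FPM (7 fragments). The log2 ratios, 3.28 (2.58 to 4.05) for the cecum and 3.78 (2.71 to 5.11) for the tumor, have intervals that overlap widely.

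Barx2 lies on chromosome 9 from 31846044 to 31913285. It gave 25.3 FPM (76 fragments) in cecum and 12.2 FPM (71 fragments) in tumor IL-10- Treg cells. IL-10+ Treg cells gave 1.23 FPM (7 fragments) and 0.733 FPM (2 fragments). The log2 ratios were 4.37 (3.26 to 5.73) for the cecum and 4.06 (2.15 to 7.13) for the tumor, where 2 fragments leave a wide interval.

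Prox1 lies on chromosome 1 from 190118035 to 190170827. Cecum and tumor IL-10- Treg cells were alike, with 19.7 FPM (59 fragments) and 20.5 FPM (119 fragments). IL-10+ Treg cells had 2.10 FPM (12 fragments) and, from a single tumor fragment, 0.367 FPM. The log2 ratios were 3.23 (2.31 to 4.26) for the cecum and 5.81 (3.30 to 11.1) for the tumor. Prox1 was the last gene taken, with log2 ratios on the FPM + 1 scale of 2.74 (cecum) and 3.98 (tumor). Rnf152, next in rank and just outside, had 2.64 and 2.65.

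For IL-10- against IL-10+ Treg cells, all 10 gene-library values passed the call. Over all 14409 genes, 2.63% passed in the cecum, 2.22% in the tumor and 1.3% in both, beside which nothing is read from the members since they were chosen on this contrast.

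**Figure D1:**
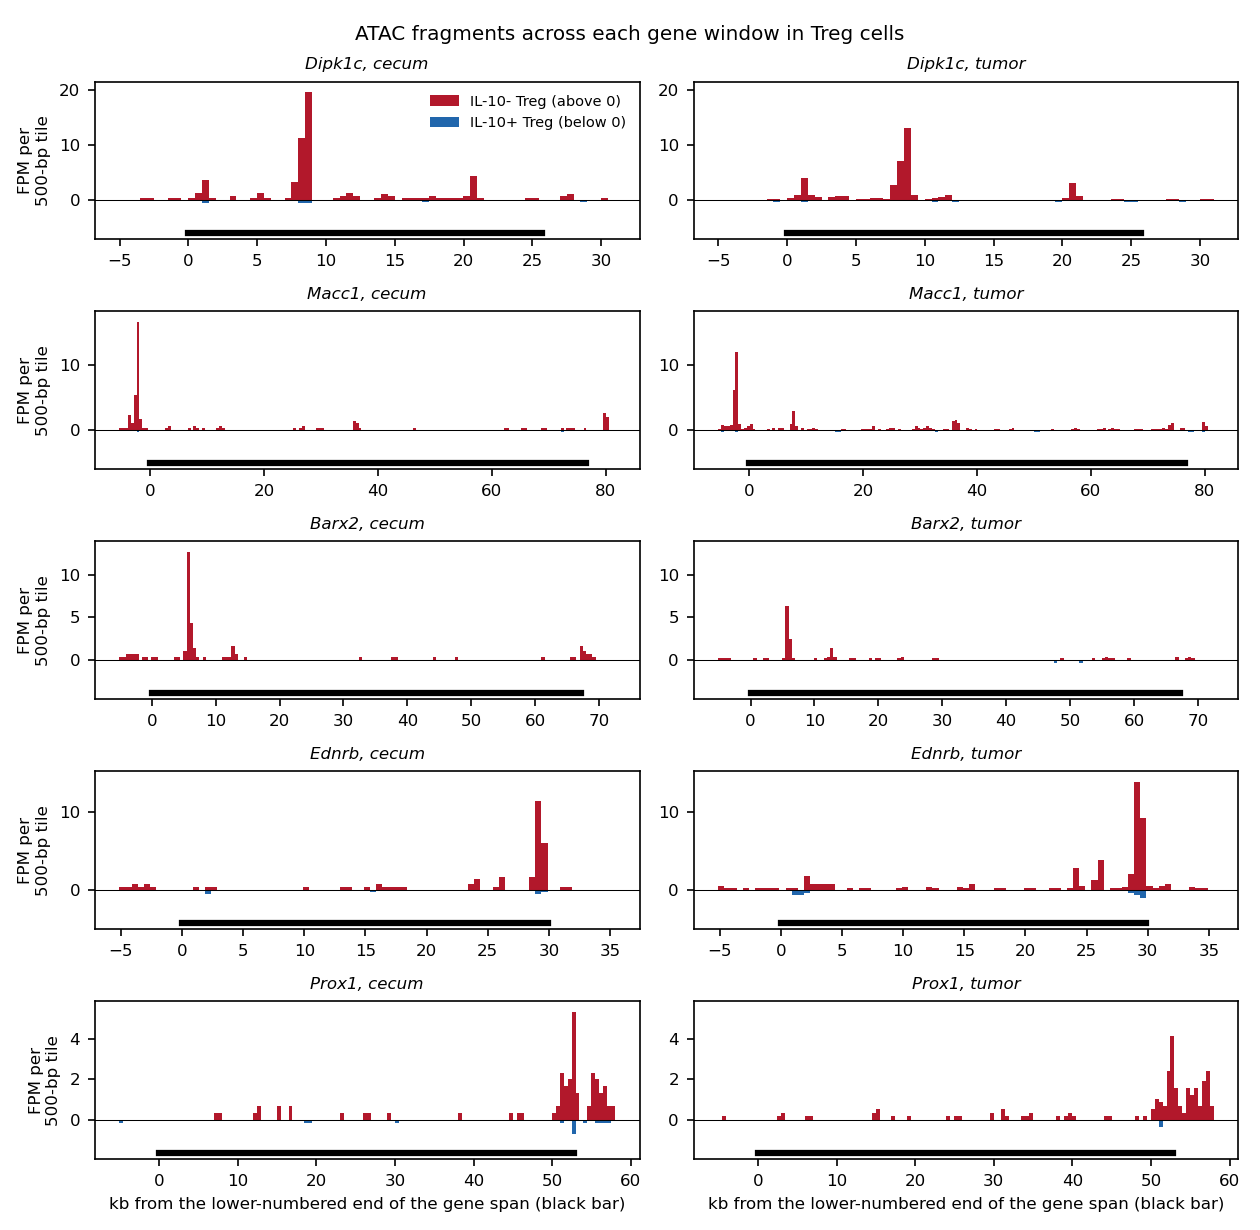
FPM in 500-bp tiles across each gene window in IL-10- Treg cells (upward bars) and IL-10+ Treg cells (downward bars), by distance in kb from the lower-numbered end of the gene span, drawn as a black bar. The fullest tile of each gene was the same in the cecum (left) and the tumor (right), at 8.74 kb into Dipk1c, 2.15 kb outside Macc1 and at the higher-numbered end of Ednrb and Prox1.

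With both libraries summed, the 3 fullest 500-bp tiles held 64.6% of the window's fragments for Dipk1c, 50.7% for Macc1, 64.6% for Barx2, 61.3% for Ednrb and 38.2% for Prox1. These were 3 tiles of 72 for Dipk1c, 174 for Macc1, 155 for Barx2, 81 for Ednrb and 126 for Prox1. The fullest tile of each gene was the same in both libraries, while lesser tiles could differ: the third tile of Macc1 held 2 cecum and 17 tumor fragments.

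Dipk1c had its fullest tile inside the gene, from 84727501 on chromosome 18, 8.74 kb from the nearer end of the span. This tile had 59 fragments in cecum and 76 in tumor IL-10- Treg cells, against 3 and 0 in IL-10+ Treg cells. Barx2 had its fullest tile 5.71 kb inside the span, from 31851501 on chromosome 9, with 38 and 37 fragments in IL-10- Treg cells and 0 in IL-10+ Treg cells of either library. That tile was also nearly empty in the other T cells, with 5 fragments over all non-Treg labels of the cecum and 4 over those of the tumor. Macc1 had its fullest tile outside the span, from 119388001 on chromosome 12, 2.15 kb beyond the end that faces Itgb8. It held 50 and 70 fragments in IL-10- Treg cells, against 2 and 1 in IL-10+ Treg cells. Inside the span alone, Macc1 had 26 of its 102 cecum and 104 of its 204 tumor fragments of IL-10- Treg cells. With no flank the log2 ratios over IL-10+ Treg cells were 1.93, against 13 fragments, and 4.03, against 3.

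Prox1 was spread more widely than the others. Its fullest tile, which holds the start of the gene, had 16 and 24 fragments in IL-10- Treg cells, and further tiles up to 5 kb beyond the start also had some. Ednrb had its fullest tile at its start, with 34 and 80 fragments in IL-10- Treg cells against 3 and 2 in IL-10+ Treg cells. Outside the 3 fullest tiles IL-10- Treg cells were also the higher, with tumor log2 ratios over IL-10+ Treg cells from 2.21 for Dipk1c to 5.12 for Prox1, the latter against 1 fragment.

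**Figure D2:**
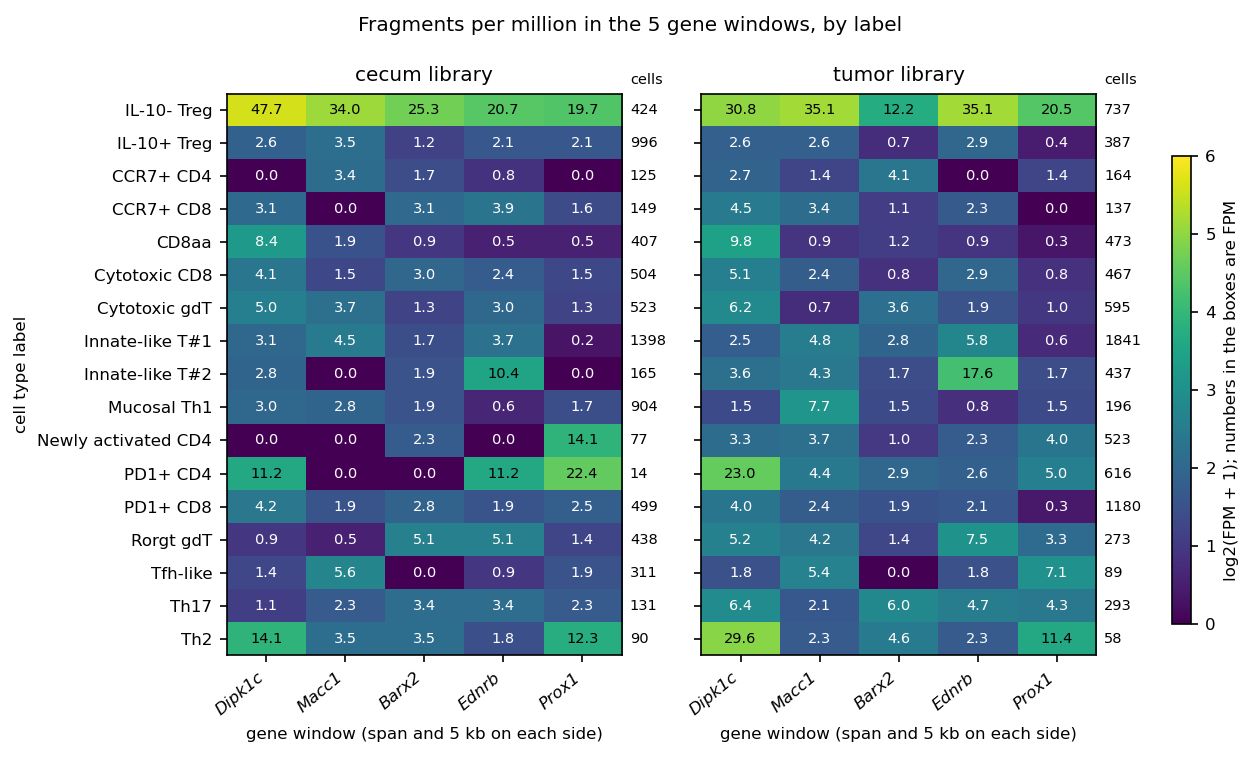
FPM in each of the 5 gene windows (columns) in each cell type label (lines), for the cecum and the tumor library, coloured on a log2(FPM + 1) scale, with the number of cells at the right. IL-10- Treg cells had the highest level in 9 of the 10 columns, and the exception is Prox1 in the cecum, where 14 PD1+ CD4 cells gave 22.4 FPM from 2 fragments.

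A comparison with T cells that are not Treg cells asks whether the genes were high in IL-10- or low in IL-10+ Treg cells. It shares the IL-10- Treg fragments with the choice of the genes and is also a description. Pooled over the 15 non-Treg labels, cecum and tumor levels were 3.54 and 6.66 FPM for Dipk1c and 2.81 and 3.36 for Macc1. For Barx2 they were 2.13 and 2.33, for Ednrb 2.64 and 4.12, and for Prox1 1.59 and 1.79. The levels of IL-10- Treg cells stood above these by cecum log2 ratios of 2.97 to 3.75 and tumor log2 ratios of 2.21 to 3.52. All 10 values passed the call, against 2.17% of genes in the cecum, 1.8% in the tumor and 1.41% in both. With 50 kb on each side 7 passed, without Dipk1c and tumor Barx2, and within 1 kb of the gene ends 7 passed.

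Non-Treg labels were also set against IL-10+ Treg cells, whose low fragments the choice of the genes used, so these counts too are a description from which nothing is read. In the cecum, 0 of the 5 genes were called higher in the pooled non-Treg labels than in IL-10+ Treg cells, and 2.9% of all genes were. In the tumor 2 were called, against 3.01% of all genes (2.08% in both libraries). The 2 were Dipk1c, with a log2 ratio of 1.38 (0.32 to 2.70), and Prox1, with 2.29 (-0.22 to 7.61) against the single IL-10+ Treg fragment. Counts this low allow differences of several fold to go unseen.

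**Figure D3:**
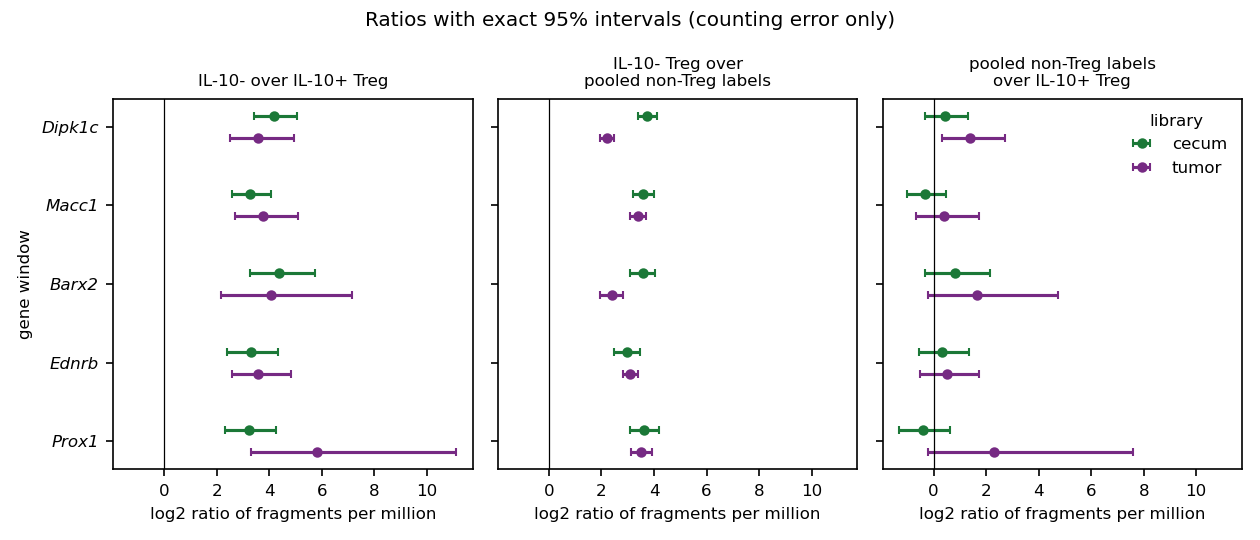
Log2 ratios of FPM for each gene window in the cecum (green) and the tumor (purple), with exact 95% intervals. IL-10- Treg cells stood above IL-10+ Treg cells (left) and above the pooled non-Treg labels (middle) at each of the 5 genes, while for the non-Treg labels over IL-10+ Treg cells (right) 9 of 10 intervals include 0.

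Which other T cells share these sites was asked of the 15 non-Treg labels alone, each against the other 14 pooled, a comparison in which neither Treg subset takes part. Of the 75 pairs of a gene and a label, 5 were called in both libraries, and over all genes 0.538% of such pairs were. They fell in 3 labels: Th2 cells, the CD4+ cells of type 2 immunity; PD1+ CD4 cells, found almost only in the tumor; and Innate-like T#2 cells. Macc1 and Barx2 were called in no non-Treg label in both libraries. The 0.538% covers genes of all levels. In a small label 1 fragment of a member could make the call of a library, so this share is not a like measure for the 5 pairs.

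Th2 cells shared Dipk1c and Prox1. For Dipk1c their cecum level was 14.1 FPM and their tumor level 29.6 FPM, with log2 ratios over the other non-Treg labels of 2.06 (0.82 to 3.09) and 2.19 (1.27 to 2.99). For Prox1 they had 12.3 and 11.4 FPM, with log2 ratios of 3.12 (1.74 to 4.27) and 2.73 (1.08 to 4.01). Over all genes, 0.868% were called in Th2 cells in both libraries. Ratios of other labels to IL-10- Treg cells are given as a description only, since high IL-10- Treg levels chose the genes. At Dipk1c in the tumor the levels of Th2 and IL-10- Treg cells were not told apart, with a log2 ratio of Th2 over IL-10- Treg cells of -0.06 (-1.0 to 0.75). In the cecum Th2 cells were lower, with -1.76 (-3.0 to -0.74). For Prox1 the same ratio was -0.68 (-2.05 to 0.46, cecum) and -0.85 (-2.50 to 0.42, tumor), so the order of these labels could not be told from counting error. The Dipk1c call in Th2 cells was lost under 3 of 11 other settings, with 50 kb on each side, within 1 kb of the gene ends and without the fullest tile, and the Prox1 call under 0.

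These Th2 values rest on few cells. The 8 cecum fragments of Dipk1c came from 4 of 90 cells, and 1 cell gave 4 of them. The 13 tumor fragments came from 8 of 58 cells, with at most 3 from 1 cell. For Prox1 the 7 cecum fragments came from 4 cells and the 5 tumor fragments from 5 cells. In Dipk1c, 6 of the 8 cecum fragments and 6 of the 13 tumor fragments of Th2 cells had an end in the tile that was fullest in IL-10- Treg cells. In Prox1 this held for 2 of the 7 cecum and 0 of the 5 tumor fragments of Th2 cells. IL-10- Treg cells had 16 of 59 and 24 of 119 there, and the Th2 counts are too few to tell the labels apart at this tile.

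PD1+ CD4 cells shared Dipk1c in the tumor. They had 23.0 FPM there, from 141 fragments in 91 of 616 cells, with a log2 ratio over the other non-Treg labels of 2.33 (2.02 to 2.65). This was below tumor IL-10- Treg cells, with a log2 ratio of -0.43 (-0.75 to -0.10), and above the next label, CD8aa cells, by 1.22 (0.68 to 1.81). Prox1 in tumor PD1+ CD4 cells had 5.05 FPM from 31 fragments, with a log2 ratio of 1.88 (1.21 to 2.52). Over all genes, 1.06% were called in PD1+ CD4 cells in both libraries. The cecum held only 14 such cells, with 1 Dipk1c and 2 Prox1 fragments, and among labels with at least 50 cells in both libraries 3 pairs in 2 labels were called. Each PD1+ CD4 pair was lost under 5 of 11 other settings, among them a pseudocount of 5 FPM, a log2 threshold of 1.5 and the 1 kb around the gene ends.

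Within Dipk1c, tumor PD1+ CD4 cells were open at partly other places than IL-10- Treg cells of the same library, in tiles named after their values were seen. The tile that was fullest in both held 24.1% of their fragments (17.3 to 32.0) and 42.5% of those of IL-10- Treg cells (35.1 to 50.1). A tile starting 11.49 kb from the lower-numbered end of the span held 15.6% (10.0 to 22.7) of PD1+ CD4 fragments, 22 in number, and 2.79% (0.913 to 6.40) of those of IL-10- Treg cells, 5 in number. The next tile had 11 fragments in PD1+ CD4 cells and 0 in IL-10- Treg cells. At 20.5 kb the order turned, with 1 PD1+ CD4 fragment against 18 of IL-10- Treg cells. The intervals did not overlap at the fullest tile or at these 3 others. They did overlap at the tiles starting at 0.993 kb (12.8% of PD1+ CD4 and 12.8% of IL-10- Treg fragments), 7.493 kb (14.2% and 8.94%) and 7.993 kb (23.4% and 22.9%). Since the tiles were picked by their values, this is a description only.

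Innate-like T#2 cells shared Ednrb. Their cecum level was 10.4 FPM, from 11 fragments in 10 of 165 cells, and their tumor level 17.6 FPM, from 53 fragments in 36 of 437 cells. The log2 ratios over the other non-Treg labels were 2.11 (1.06 to 3.03) and 2.40 (1.93 to 2.86), and 0.201% of all genes were called in this label in both libraries. Against IL-10- Treg cells, whose high levels chose the genes, they had log2 ratios of -0.99 (-2.07 to -0.06) for the cecum and -1.0 (-1.46 to -0.56) for the tumor. Their fragments lay at the gene start, as those of IL-10- Treg cells did: the promoter printed above held 5 cecum and 22 tumor fragments, and the 3 fullest tiles held 66.0% (51.7 to 78.5) of the 53 tumor fragments. Innate-like T#1 cells had 3.72 (cecum) and 5.76 FPM (tumor) at Ednrb, also with the same fullest tile. Rorgt gdT cells had more, 5.09 and 7.53 FPM, with log2 ratios of 1.04 (-0.02 to 1.95) and 0.92 (0.08 to 1.65), and 6 of their 16 tumor fragments were in that tile.

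**Figure D4:**
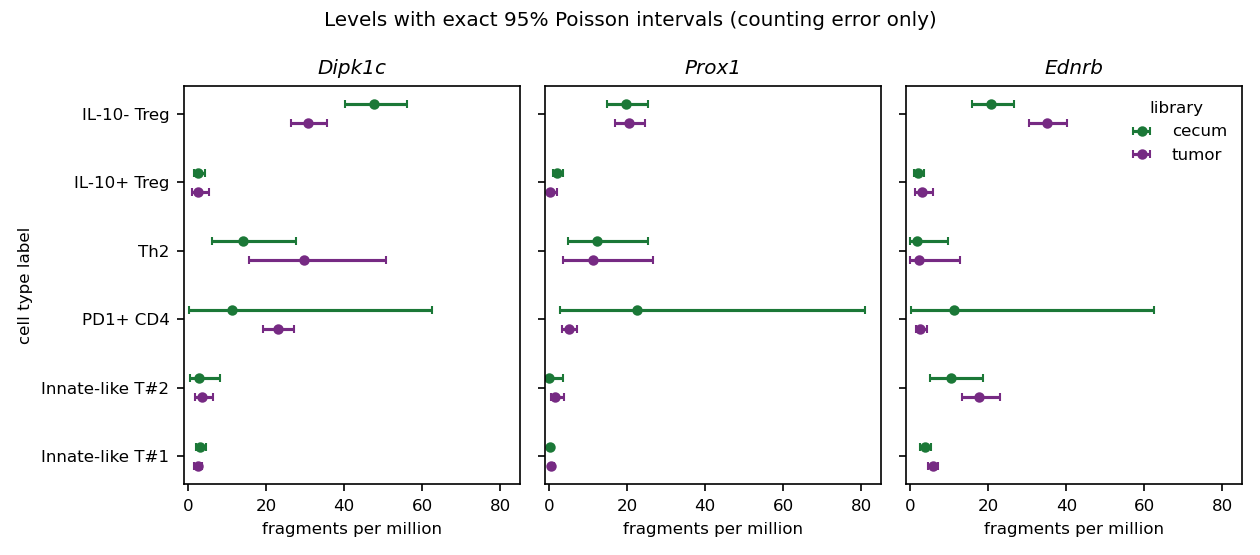
FPM at Dipk1c, Prox1 and Ednrb in 6 labels, cecum in green and tumor in purple, with exact 95% Poisson intervals. Th2 cells had 14.1 and 29.6 FPM at Dipk1c and Innate-like T#2 cells 10.4 and 17.6 FPM at Ednrb, cecum first, and the genes were chosen for high IL-10- and low IL-10+ Treg levels. The long green bars of PD1+ CD4 cells reflect 14 cells.

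A further 7 pairs were called in 1 library only, of which 4 were cecum calls and 3 were tumor calls. Over all genes, 1.42% of gene-label pairs were called in the cecum and 0.836% in the tumor. These shares include the 0.538% called in both libraries, so they are wider than the counts of 4 and 3. Newly activated CD4 cells had 14.1 FPM at Prox1 in the cecum from 6 fragments, with a log2 ratio of 3.29 (1.78 to 4.51), and 4.00 FPM in the tumor, with 1.27 (0.26 to 2.15). CD8aa cells had cecum and tumor levels of 8.35 and 9.83 FPM at Dipk1c, with log2 ratios of 1.37 (0.56 to 2.10) and 0.61 (0.05 to 1.12). Both labels had the same direction in the library where they missed the call, but the other cecum calls did not. Barx2 in Rorgt gdT cells had log2 ratios of 1.40 (0.32 to 2.33, cecum) and -0.75 (-3.05 to 0.83, tumor), and its 11 cecum fragments came from 4 of 438 cells, with 7 from 1 cell. Ednrb in PD1+ CD4 cells had 2.10 (-3.22 to 4.62), from 1 fragment, and -0.73 (-1.56 to 0.0038). At Barx2, Th17 cells had 5.98 FPM from 14 tumor fragments and 3.44 FPM from 3 cecum fragments, and the call was made in the tumor. At Macc1, Mucosal Th1 cells had 7.72 FPM from 10 tumor fragments and 2.84 FPM from 15 cecum fragments, again with the call in the tumor. The other tumor call was Prox1 in Tfh-like cells, with 7.13 FPM from 4 tumor fragments and a log2 ratio of 2.04 (0.13 to 3.44), against 1.88 FPM and 0.26 (-1.67 to 1.70) in the cecum.

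Likeness between the 5 genes across labels was read without Treg cells. Over the 33 label and library values with at least 50 cells, Pearson's r of log2(FPM + 1) between members had a median of 0.47 over 10 pairs, from 0.26 to 0.54. These include the 4 Treg values that chose the genes, which by themselves make them go together, so nothing is read from this r, and by Spearman's rho its median was 0.25. Over the 29 values that are not Treg cells the median r was 0.12, from -0.42 to 0.22. These values share libraries and differ in depth, and many rest on few fragments, so r is a description with no p.

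Each cell was next thinned to 3000 fragments to see how many cells carried the signal, which left 287 of 424 cecum and 541 of 737 tumor IL-10- Treg cells. A fragment in any of the 5 windows was seen in 32.1% of cecum (26.7 to 37.8) and 32.2% of tumor (28.2 to 36.3) IL-10- Treg cells. In IL-10+ Treg cells the shares were 3.36% (2.07 to 5.14) of 595 cells and 1.77% (0.576 to 4.07) of 283 cells. These shares recount fragments that chose the genes, so the gap between the Treg subsets is a description only. Their intervals treat the cells of 1 library as units. Median depths before thinning were 5635 and 6477 fragments in IL-10- Treg cells and 4083 and 5479 in IL-10+ Treg cells. The signal was thus spread over many IL-10- Treg cells. Fragments in 2 of the 5 windows were seen in 17 cecum and 32 tumor IL-10- Treg cells, and in 3 or more windows in 1 cell of each library.

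For single genes the shares of IL-10- Treg cells with a fragment after thinning were 11.1% and 9.43% for Dipk1c, 6.97% and 10.4% for Macc1, 8.01% and 3.88% for Barx2, 6.97% and 8.32% for Ednrb and 5.57% and 6.47% for Prox1, the cecum first. Without thinning, 18.6% and 17.1% of IL-10- Treg cells had a Dipk1c fragment, against 1.31% and 1.81% of IL-10+ Treg cells. The most that 1 IL-10- Treg cell gave was 9 fragments, at cecum Dipk1c. Cells with over 3 times their library's median depth made up 17.5% of cecum and 8.68% of tumor IL-10- Treg cells. They held 43.4% and 22.3% of the label's fragments and 43.2% and 21.1% of those in the 5 windows, about the same shares. In IL-10+ Treg cells such deep cells held 33.1% and 20.2% of the label's fragments but 40.9% and 32.0% of those in the windows, 27 of 66 and 8 of 25. Without the deep cells, the cecum Dipk1c log2 ratio of the Treg subsets was 5.44, from 77 and 4 fragments, in place of 4.18. Any part of doublets in these values was not tested.

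Among non-Treg labels with at least 50 cells in both libraries, Th2 cells had the largest share of cells with any such fragment, 13.0% (5.37 to 24.9) of 54 cecum and 14.9% (6.20 to 28.3) of 47 tumor cells. Innate-like T#2 cells followed with 8.57% and 7.33%, and tumor PD1+ CD4 cells had 8.28%. The other labels lay between 1.47% and 6.55%.

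**Figure D5:**
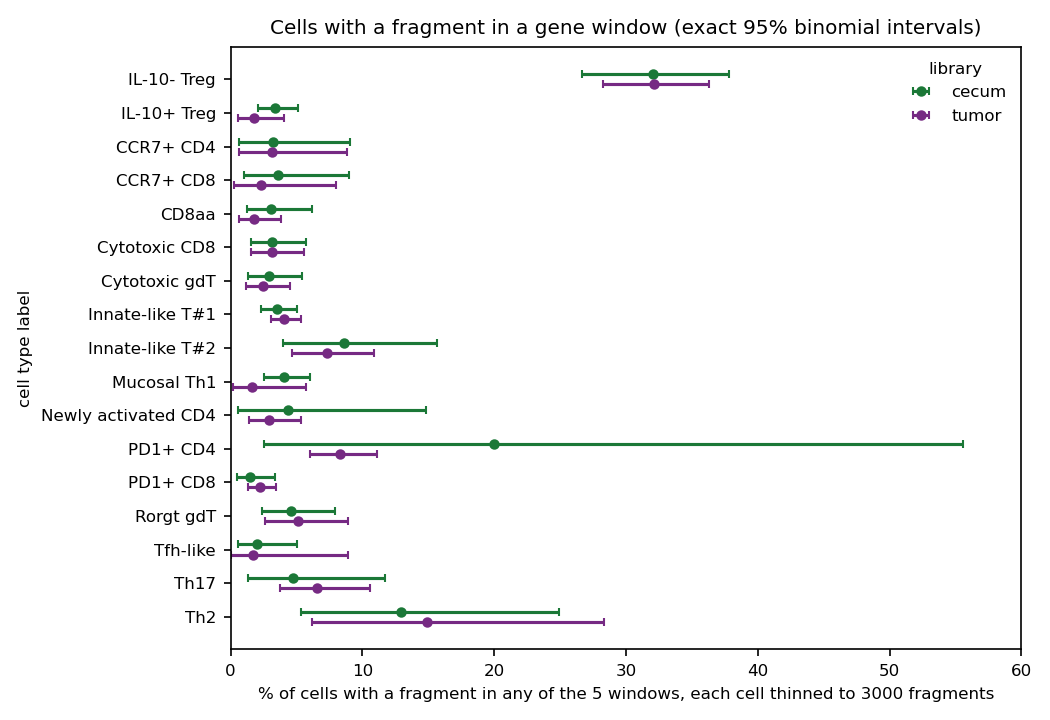
Share of cells with at least 1 fragment in any of the 5 gene windows, by cell type label, after each cell was thinned to 3000 fragments and shallower cells were left out, with exact 95% binomial intervals. IL-10- Treg cells stood at 32.1% (cecum) and 32.2% (tumor), above every other label, although the interval of the 10 cecum PD1+ CD4 cells, 2.52 to 55.6%, reaches past them. The genes were chosen for high IL-10- and low IL-10+ Treg levels.

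Between the tissues the 5 genes did not move alike within IL-10- Treg cells, although tissue and library cannot be told apart. Ednrb was higher in the tumor, 35.1 against 20.7 FPM, with a log2 ratio of 0.77 (0.35 to 1.20). Barx2 was lower there, 12.2 against 25.3 FPM, with -1.05 (-1.54 to -0.56), and so was Dipk1c, 30.8 against 47.7 FPM, with -0.63 (-0.95 to -0.30). Macc1 and Prox1 had log2 ratios of 0.05 (-0.30 to 0.41) and 0.06 (-0.40 to 0.54), which leave room for changes in either direction. On the FPM + 1 scale 0 of the 5 passed a log2 ratio of 1 in either direction, against 0.389% of all genes, and Barx2, at -0.99, passed it under 5 of 11 other settings. The pooled non-Treg labels went up in the tumor at Ednrb, by 0.65 (0.29 to 1.01), and at Dipk1c, by 0.91 (0.61 to 1.22). The mix of labels in this pool differed between the libraries: 141 of the 357 tumor Dipk1c fragments came from PD1+ CD4 cells, of which the cecum had 14. By single label, Dipk1c was higher in the tumor in 12 of 15 non-Treg labels and lower in 3, and Ednrb higher in 11 and lower in 4, many of them from few fragments.

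Fragments shorter than the DNA wound on a nucleosome core were 44.9% of all fragments of cecum and 47.4% of tumor IL-10- Treg cells. In the windows of the 5 genes the shares were 44.6% (39.9 to 49.3) and 44.5% (41.0 to 48.1). Prox1 stood apart in the tumor, where only 25 of 119 fragments were short, 21.0% (14.1 to 29.4). In the cecum its share was 35.6% (23.6 to 49.1). Of the 10 gene-library intervals, 9 held the share of the whole label.

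Of 22 protein-coding genes within 500 kb of a member, 16 had the minimum of 50 fragments and 1 was called in both libraries, against 1.3% of all genes. This was Itgb8, which encodes an integrin chain that activates TGF-beta and lies 152 kb from Macc1. Itgb8 is also among the RNA module genes that the authors give for IL-10- Treg cells. It had 115 FPM in cecum and 123 FPM in tumor IL-10- Treg cells against 39.9 and 41.4 in IL-10+ Treg cells, with log2 ratios of 1.53 (1.28 to 1.78) and 1.57 (1.28 to 1.87). On the other side of Macc1 the nearest gene, Tmem196, did not reach 50 fragments, and its log2 ratios were -0.79 (-2.25 to 0.48) and 0.13 (-1.34 to 1.80).

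Around Dipk1c, the nearest genes were level or slightly higher, Cndp2 with cecum and tumor log2 ratios of 0.10 and 0.18 and Gm17266 with 0.58 and 0.69. Beside Barx2, Tmem45b, which did not reach the minimum, had 0.19 and -0.44 and Arhgap32 had -0.18 and 0.07. Slain1, next to Ednrb, had 0.22 and 0.03, and Smyd2, next to Prox1, had 0.70 and 0.89. On the FPM + 1 scale the median over the 16 neighbours that reached the minimum was 0.09 in each library. Among those below it, Cndp1 near Dipk1c had log2 ratios of 1.62 (0.55 to 2.74, cecum) and 0.80 (-0.24 to 1.97, tumor), and Abcb5 near Macc1 had a tumor log2 ratio of 1.59 (0.22 to 3.31) and a cecum interval of -0.07 to 2.39. These 2 genes were named after their values were seen.

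Genes that share a pathway or lineage with the members were counted whole, from lists chosen with earlier results of these data known. None of the 2 endothelin genes tested of 6, the 5 HGF and MET genes of 8, the 3 homeobox genes related to Barx2 of 6 and the 6 kinase genes of 8 was called higher or lower in both libraries. The list medians lay between -0.56 and 0.72, beside -0.01 over all genes in each library. The endothelin gene Ece1, named after its values were seen, was lower in IL-10- Treg cells without reaching the call. Its log2 ratios were -0.85 (-1.01 to -0.70, cecum) and -0.86 (-1.01 to -0.71, tumor). Ece2, the other endothelin gene tested, had -0.31 and 0.29. Of 8 lymphatic endothelial genes 2 were tested, and they went opposite ways. Flt4, the receptor of that lineage for its growth factor, had log2 ratios of 1.13 (0.48 to 1.79, cecum) and 0.51 (-0.10 to 1.16, tumor), and was called higher in the cecum alone. Pdpn, which encodes the glycoprotein podoplanin, was called lower in both libraries, as 0.278% of all genes were. It had 8.66 FPM in cecum IL-10- against 28.5 in IL-10+ Treg cells, and 7.23 against 25.3 in those of the tumor. Its log2 ratios were -1.72 (-2.38 to -1.12) and -1.81 (-2.40 to -1.23). Of the 18 list genes below the minimum of 50 fragments, 3 reached the call value on the higher side in both libraries and 0 on the lower side, and 1.77% of all genes below the minimum reached it on the higher side. They were Ednra, Hgf and Vegfc, named after their values were seen. Ednra, the other endothelin receptor, had log2 ratios of 1.22 (0.25 to 2.20) and 1.31 (0.13 to 2.72), while Ece1, given above, went the other way. Hgf, the growth factor, had 1.93 (0.40 to 3.63) and 2.91 (0.22 to 8.30), the latter from 16 tumor fragments against 1. Vegfc, a lymphatic growth factor, had 1.72 (0.57 to 2.93) and 2.01 (0.68 to 3.71). The 1.77% takes in genes with however few fragments, so it is not a like measure for these genes.

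Of 15 genes known from tissue Treg cells, all tested, 3 were called higher on the IL-10- side in both libraries, where 1.3% of all genes were, with list medians of 0.54 (cecum) and 0.39 (tumor). The authors name Ikzf2, Il1rl1, Gata3, Klrg1, Itgb8 and Il2ra in RNA modules of IL-10- Treg cells. The Treg labels come from the RNA too, so the 1.3% is not a like measure and the count is a description only. Klrg1, an inhibitory receptor of antigen-experienced cells, had 72.6 against 11.7 FPM (cecum) and 68.9 against 26.4 FPM (tumor). Pparg, a nuclear receptor that fat tissue Treg cells need, had 39.99 against 12.1 FPM and 55.3 against 16.1. The third was Itgb8, given above. Other genes of the list went the other way, though none was called lower in both libraries. Nfil3 had log2 ratios of -0.54 (-0.70 to -0.37) and -0.43 (-0.60 to -0.27), Irf4 -0.12 and -0.38, and Batf -0.06 and -0.29, cecum first.

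Genes far from a member whose levels followed it most closely over the 33 label and library values were named by Pearson's r. They were Cald1 (r of 0.82), Dscaml1 (0.79) and Six2 (0.75) for Dipk1c, and Ctsz (0.74), Vav2 (0.73) and Wdr93 (0.72) for Macc1. For Barx2 they were Mamstr, Teddm2 and Slc25a25, each with 0.61, and for Ednrb they were Tmem51 (0.73), Socs5 (0.72) and Cep112 (0.72). For Prox1 they were Plagl1 (0.78), Ebi3 (0.77) and Il9r (0.77). The 33 values include the 4 Treg values that chose the members, so a high r restates the choice in part. None of these genes is another member. Dscaml1 had 75.6 and 136 FPM in cecum and tumor IL-10- Treg cells, against 9.63 and 24.9 in IL-10+ Treg cells, and was itself eighth in the rank that chose the 5 genes.

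Markers of other cell types were summed in the same way, since the 5 genes are known from such cells. The 6 T cell genes summed to 756 FPM in cecum and 697 FPM in tumor IL-10- Treg cells, against 776 and 748 in IL-10+ Treg cells. The 4 Treg genes summed to 869 and 792 against 631 and 620, and to at most 629 in any non-Treg label. The higher sum came with Ikzf2, at 474 and 436 against 205 and 235 FPM, while Foxp3 was at 97.3 and 76.0 against 102 and 79.2 and Ctla4 at 110 and 97.3 against 160 and 135. The 10 epithelial genes summed to 144 and 160 in IL-10- and 108 and 107 in IL-10+ Treg cells. In each library 7 of the 10 were higher in IL-10- Treg cells, and 1 was called in the cecum, where 2.63% of all genes were. Cdh1, which encodes E-cadherin, gave most of the difference, with 75.0 and 85.4 against 50.1 and 46.9 FPM. Innate-like T#1 cells had the highest epithelial sums, 206 and 216 FPM, with cecum levels of 0.248 to 4.46 FPM and tumor levels of 0.640 to 5.76 FPM at the 5 genes.

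The 6 endothelial genes summed to 130 and 172 FPM in IL-10- and 159 and 186 in IL-10+ Treg cells, and the 5 enteric glial genes to 99.3 and 116 against 120 and 116. A single gene made up most of each sum and set its order. Pecam1 had 105 and 142 against 142 and 159 FPM, and Erbb3 83.3 and 100 against 109 and 105. These sums therefore say little of the other genes in the 2 lists. In each library 3 of the 6 endothelial genes were higher in IL-10- Treg cells, and 1 was called in the cecum, where 2.63% of all genes were. Of the 5 enteric glial genes 3 were higher in the cecum and 2 in the tumor, where 1 was called, as 2.22% of all genes were. Sums for 5 fibroblast genes were 72.0 and 64.4 against 57.4 and 57.9, for 6 myeloid genes 171 and 178 against 169 and 168, and for 6 B cell genes 151 and 153 against 149 and 155. No gene of these lists was at 0 in IL-10- Treg cells, and the log2 ratios of the sums for non-T cell lists lay between -0.29 and 0.57. The part of other cells in the levels of the 5 genes was not tested.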

How the data were processed

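The 5 genes, the gene and marker lists and the rules used here were chosen with earlier results of these data known. The authors aligned reads with the Cell Ranger pipeline (Cell Ranger ARC 2.0.0 and mm10 in the submitters' processing notes) and deposited, for each tissue, a fragment file whose last column holds the count of read pairs behind each ATAC fragment. They kept nuclei by RNA quality, ATAC fragment number and enrichment at gene starts, and named cell types from clusters of the RNA, which the deposited cell table carries over to the ATAC barcodes. The sources used here do not say if they took out doublets, and no doublet caller was run. The RNA was not analysed here.

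Each distinct fragment was counted 1 time, whatever its number of read pairs (4.29 per fragment in the cecum, 3.11 in the tumor), if an end lay in a RefSeq GRCm38.p6 gene span with 5 kb on each side. Labelled barcodes held 66.2% of cecum and 64.2% of tumor fragments. Levels are fragments per 1000000 of the label (FPM), and called genes had a log2 ratio of at least 1 after adding 1 FPM. Genes needed 50 fragments in the Treg subsets of each library. Ratio intervals are exact binomial (Clopper-Pearson) and level intervals exact Poisson, at 95%, for counting error only, and a count of 0 was given a floor of 3. Named genes were the members, the gene next in rank, the nearest neighbour on each side within 500 kb and any neighbour or list gene called in both libraries, and the 3 genes of highest Pearson's r over 1 Mb away. The counting steps were tested on simulated data. Tables were made in Python 3.11.15 with pandas 2.3.3, numba 0.67.0, numpy 2.4.6, pyarrow 21.0.0 and scipy 1.17.1, and figures with matplotlib 3.10.9. Alternatives were other windows, scalings, pseudocounts, thresholds and sets of cells. Those with labels of at least 50 cells and without barcodes labelled in both libraries were chosen after seeing the data.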

Additional observations from a re-analysis of the deposited data

Results flagged for a closer look

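Barcodes without a label, which take no part in the comparisons above, carried the 5 genes above the level of the pooled non-Treg labels. Over 1592 such barcodes with at least 1000 fragments in the cecum, levels were 7.51 FPM for Dipk1c, 7.70 for Macc1, 7.20 for Barx2, 7.14 for Ednrb and 5.15 for Prox1. Over 2044 in the tumor they were 11.6, 9.97, 6.82, 9.56 and 5.26 FPM in the same order. All 10 values lay below those of IL-10- Treg cells. In the same barcodes Foxp3 had 39.9 and 30.2 FPM, against 32.7 and 26.1 in the pooled non-Treg labels, and Cd3e, a chain of the T cell receptor complex, had 61.5 and 61.4 against 75.3 and 74.8. The sums there were 140 and 180 FPM for epithelial, 122 and 155 for endothelial, 114 and 116 for enteric glial and 71.4 and 74.7 for fibroblast genes. For myeloid genes they were 212 and 202, for B cell genes 190 and 190, and for T cell genes 624 and 602. The part of unlabelled Treg cells or of other cells in these values was not tested.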

How the results depend on the processing

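With 1 library per tissue there is no replicate spread, and depth limits every value that rests on a few fragments. No paired analysis was possible because each tissue has 1 library and no replicate numbers. Of 89 recomputed log2 ratios between the Treg subsets, 88 put IL-10- above IL-10+ and 78 lay within the interval of the reported value, with a range of -0.072 to 5.85. The negative value was cecum Macc1 within 1 kb of either gene end, from 2 and 4 fragments, and Barx2 in the tumor gave no value there. With 50 kb on each side the Dipk1c ratios were 0.70 and 0.60, and 8 of the 10 calls of IL-10- above IL-10+ were left. Within 1 kb of the gene ends, calls of IL-10- above IL-10+ fell from 10 to 6. For non-Treg labels over IL-10+ Treg cells the 2 calls became 1 with no flank and 0 within 1 kb of the ends, with a pseudocount of 5, at a log2 of 1.5 and without the fullest tile, and 3 with 50 kb, namely Barx2 in both libraries and tumor Prox1. They stayed 2 but were partly other genes without the deepest cells (Dipk1c in both libraries) and as a mean over cells (tumor Dipk1c and Barx2). The 5 gene-label pairs became 3 with 50 kb, with a pseudocount of 5, at a log2 of 1.5, without the fullest tile and among labels of at least 50 cells, and 2 within 1 kb of the ends. They were 4 with no flank, 6 as a mean over cells, where Prox1 in Newly activated CD4 cells was added, and 5 without the deepest cells, where that pair took the place of Prox1 in PD1+ CD4 cells. Over 11 alternatives, Ednrb in Innate-like T#2 and Prox1 in Th2 cells were called in all 11, Dipk1c in Th2 cells in 8, and each PD1+ CD4 pair in 6. Tumor over cecum calls in IL-10- Treg cells went from 0 to 1 for Barx2 without the deepest cells, within 1 kb of the ends, scaled to fragments near gene ends, as a mean over cells and without barcodes labelled in both libraries, and to 1 for Ednrb without the fullest tile. The share of fragments in the 3 fullest tiles, 56.5% over the 5 genes, was 60.1% without the deepest cells. The median r between members, 0.47, was 0.25 by Spearman's rho, and the share of short fragments over both libraries, 44.5%, was 39.6% below 120 bp. The cause of these differences was not tested.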
